A study of Mus musculus with 6 samples.

Results

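The 10 transcription factor genes followed here steer mesenchymal cells towards fat or skeleton, and they were measured in fetal mouse kidney stroma plated on more or less fibronectin. They were chosen by symbol: Pparg, Cebpa, Cebpb and Cebpd of the adipogenic cascade, Runx1, Runx2 and Runx3 of the Runt family, Sox9, and the basic helix-loop-helix genes Twist1 and Twist2. These are 10 of 78409 genes in the table, each symbol had 1 row, and all 10 passed the filter on low counts. The cells were PDGFRa-positive nephrogenic stroma, the connective tissue of the outer fetal kidney, sorted after pooling wild-type CD1 kidneys from embryonic day 18. They were then cultured for 18 h with fetal bovine serum on PDMS, a silicone elastomer spread over coverslips. For high adhesion (3 libraries) the coating solution held bovine fibronectin at 50000 ng/mL, and for low adhesion (3 libraries) at 500 ng/mL. The groups were matched by litter, with 3 litters. All cells had passed through sorting medium with Y27632, an inhibitor of the kinase ROCK, and no uncoated or uncultured sample is used here.

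PPARG is the nuclear receptor that drives fat cell differentiation, and in that cascade C/EBPβ and C/EBPδ act early and help to switch on Pparg and Cebpa, whose products then sustain each other. RUNX2 is the factor that commits cells to bone and SOX9 the one that commits them to cartilage, while TWIST1 and TWIST2 can bind RUNX2 and hold it back. RUNX1 and RUNX3 are best known from blood cells, C/EBPα also from myeloid cells, and SOX9 is also made by ureteric tip and nephron epithelium in the kidney. In cultured mesenchymal cells, adhesion and spreading are known to bear on the choice between fat and bone.

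Promoter windows from RefSeq (build GRCm38.p6, 250 bases before to 50 bases after an annotated start) were at hand for 8 of the 10 genes, 12 windows in all, and none was read for Cebpd or Sox9. On both strands 8 motifs were searched. The C/EBP motif, searched as TTGCNNAA, was found in windows of 3 of the 4 genes with a window that were lower at high adhesion (Pparg, Runx2 and Twist2) and of 0 of the 4 with a window that did not pass the test (Cebpa, Runx1, Runx3 and Twist1). Counted by window, it was in 3 of 6 windows of the lower genes and 0 of 6 of the others. It occurred in 10.8% of all 32851 windows of the same length and in 7.96% of those of tested genes, and none of these matches overlapped a match of another searched motif. The windows that held it are printed 5′ to 3′ on the strand of the gene, with the matches in capitals. This motif was picked from the 8 with the counts above in view. Any part of C/EBP proteins in the lower levels of these genes was not tested. The Pparg window, at chr6:115421816-115422115 on the plus strand, is the most downstream of 3; its matches begin 215 and 16 bases before the start. The Runx2 window lies at chr17:44814578-44814877 on the minus strand, with the match 48 bases before the start. The Twist2 window lies at chr1:91801211-91801510 on the plus strand, with matches that begin 29 bases before the start and at base 41 after it.
Pparg: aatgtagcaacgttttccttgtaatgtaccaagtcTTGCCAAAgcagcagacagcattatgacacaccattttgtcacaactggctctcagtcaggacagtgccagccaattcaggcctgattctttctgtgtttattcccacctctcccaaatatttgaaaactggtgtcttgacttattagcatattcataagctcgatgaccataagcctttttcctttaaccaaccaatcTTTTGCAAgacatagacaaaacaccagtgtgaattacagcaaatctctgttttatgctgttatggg
Runx2: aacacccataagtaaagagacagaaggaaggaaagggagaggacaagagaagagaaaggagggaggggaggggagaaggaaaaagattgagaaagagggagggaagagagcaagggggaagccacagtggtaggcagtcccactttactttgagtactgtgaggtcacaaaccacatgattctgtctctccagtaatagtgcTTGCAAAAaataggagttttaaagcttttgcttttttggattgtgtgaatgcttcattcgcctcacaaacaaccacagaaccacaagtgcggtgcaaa
Twist2: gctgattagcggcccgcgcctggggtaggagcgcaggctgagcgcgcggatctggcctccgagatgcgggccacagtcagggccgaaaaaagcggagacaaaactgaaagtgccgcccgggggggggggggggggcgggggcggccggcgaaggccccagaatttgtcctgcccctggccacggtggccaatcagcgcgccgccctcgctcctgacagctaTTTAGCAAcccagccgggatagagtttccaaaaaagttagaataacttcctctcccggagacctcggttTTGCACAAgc

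The window of Cebpb itself, at chr2:167688665-167688964 on the plus strand, had no C/EBP match and held the core of the cyclic AMP response element, searched as TGACG, 3 times (in capitals below). That motif was found in 2 of the 12 windows, the other being that of Twist1, in 20.8% of all windows and in 31% of those of tested genes. It is shown because Cebpb had the lowest adjusted p of the 10 genes.
Cebpb: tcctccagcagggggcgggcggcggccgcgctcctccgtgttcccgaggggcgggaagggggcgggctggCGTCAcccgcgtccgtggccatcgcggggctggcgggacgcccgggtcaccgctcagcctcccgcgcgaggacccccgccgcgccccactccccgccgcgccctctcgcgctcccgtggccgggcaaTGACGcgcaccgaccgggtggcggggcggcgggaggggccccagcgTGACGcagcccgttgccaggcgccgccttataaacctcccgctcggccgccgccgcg

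The RUNX motif, searched as TGNGGT, was found in 5 of the 12 windows, against 45.8% of all windows and 41.9% of those of tested genes. It had 5 matches in the single Runx2 window, 3 in the upstream window of Runx1, 2 in that of Runx3, and 1 each in the most upstream Pparg window and in Twist2, and the downstream windows of Runx1 and Runx3 had none. In Runx2, 3 of the RUNX matches overlapped an E-box (CANNTG). E-boxes, the sites of TWIST-type proteins, were found in 72.3% of all windows, in 63% of those of tested genes and in 7 of the 12 here. The TEAD motif GGAATG, of the factors that partner YAP and TAZ, was found in 14.7% of all windows and 12.1% of those of tested genes. Here it was only in the downstream Runx1 window. TATAAA was present in 13.6% of all windows, in 7.58% of those of tested genes and in 4 of the 12. In the same order, CCAAT was in 37.4%, 37.6% and 8 of the 12, and the SOX motif AACAATG in 3.78%, 1.87% and 0 of the 12. A match describes letters in the window and no more, and no binding was measured here.

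**Figure D1:**
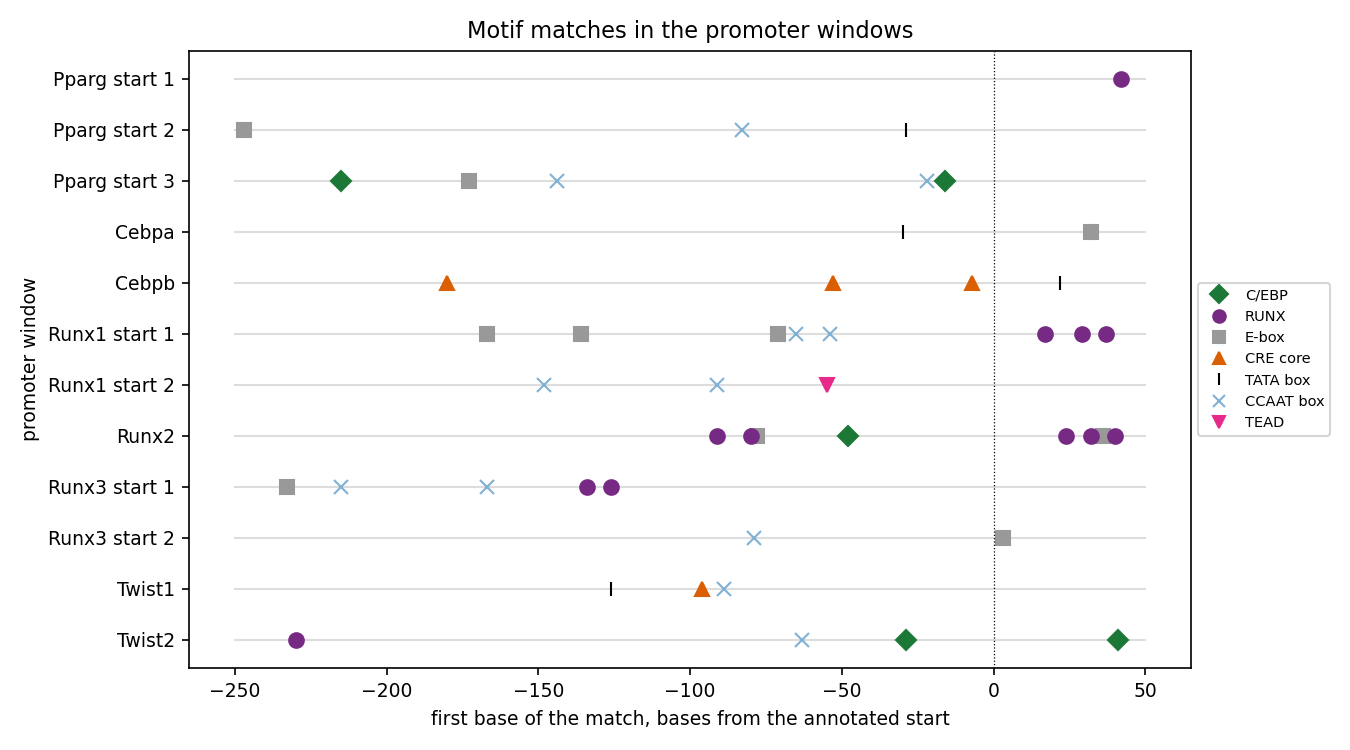
Matches to the searched motifs in 12 promoter windows of 8 genes, with the distance in bases from the annotated start on the x axis and 1 window per line. C/EBP matches (green diamonds) lie in the third Pparg window, in Runx2 and in Twist2, and the 5 RUNX matches of Runx2 lie on both sides of its start.

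The libraries held between 12596249 and 13508257 counts. By these totals alone, 1 count stood for 0.074 to 0.0794 CPM (the count scaled to library size). The levels given below are in CPM that were also scaled with TMM factors. As a check of the tissue, all 11 stromal markers fixed for this purpose were above the filter, with Vim, Col1a1 and Foxd1 at a mean of 3630, 1380 and 170 CPM at high adhesion and of 3350, 1600 and 205 CPM at low adhesion. Of these 11 markers, 8 were lower at high adhesion and 1 (Vim) higher, with summed levels of 5320 to 6280 CPM at high and 5490 to 6270 CPM at low adhesion, and Pdgfra, the sort marker, was at 21.1 ± 4.64 CPM at high and 30.8 ± 3.71 CPM at low adhesion (SD, n = 3 each). Stromal markers thus moved in the same direction as the members that fell, and their part in those differences was not tested. In such bulk RNA, fewer cells of a type and less RNA per cell cannot be told apart.

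At high adhesion 4 of the 10 genes were lower (Pparg, Cebpb, Runx2 and Twist2), 0 were higher and 6 did not pass, by edgeR's quasi-likelihood fit blocked on litter at an adjusted p under 0.05. At an unadjusted p under 0.05, 1 gene was higher (Cebpd), and DESeq2 and limma-voom also called 0 higher. Over all 14834 genes tested, 9.55% were called, 4.71% higher and 4.83% lower, and the 4 lower genes were 40% of the members. Each of the 4 was lower in 3 of 3 litters. The median log2 fold change (high minus low) of the 10 was -0.08, against -0.0012 over all tested genes. Without the replicate block 0 of the 10 passed in edgeR, where 1 (Pparg) had an unadjusted p under 0.05. Of the 10 genes 9 differed between litters in the F-test of the same fit, where 17.9% of all tested genes did, and Runx3, the least abundant, did not (edgeR adjusted p = 0.0752).

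**Figure D2:**
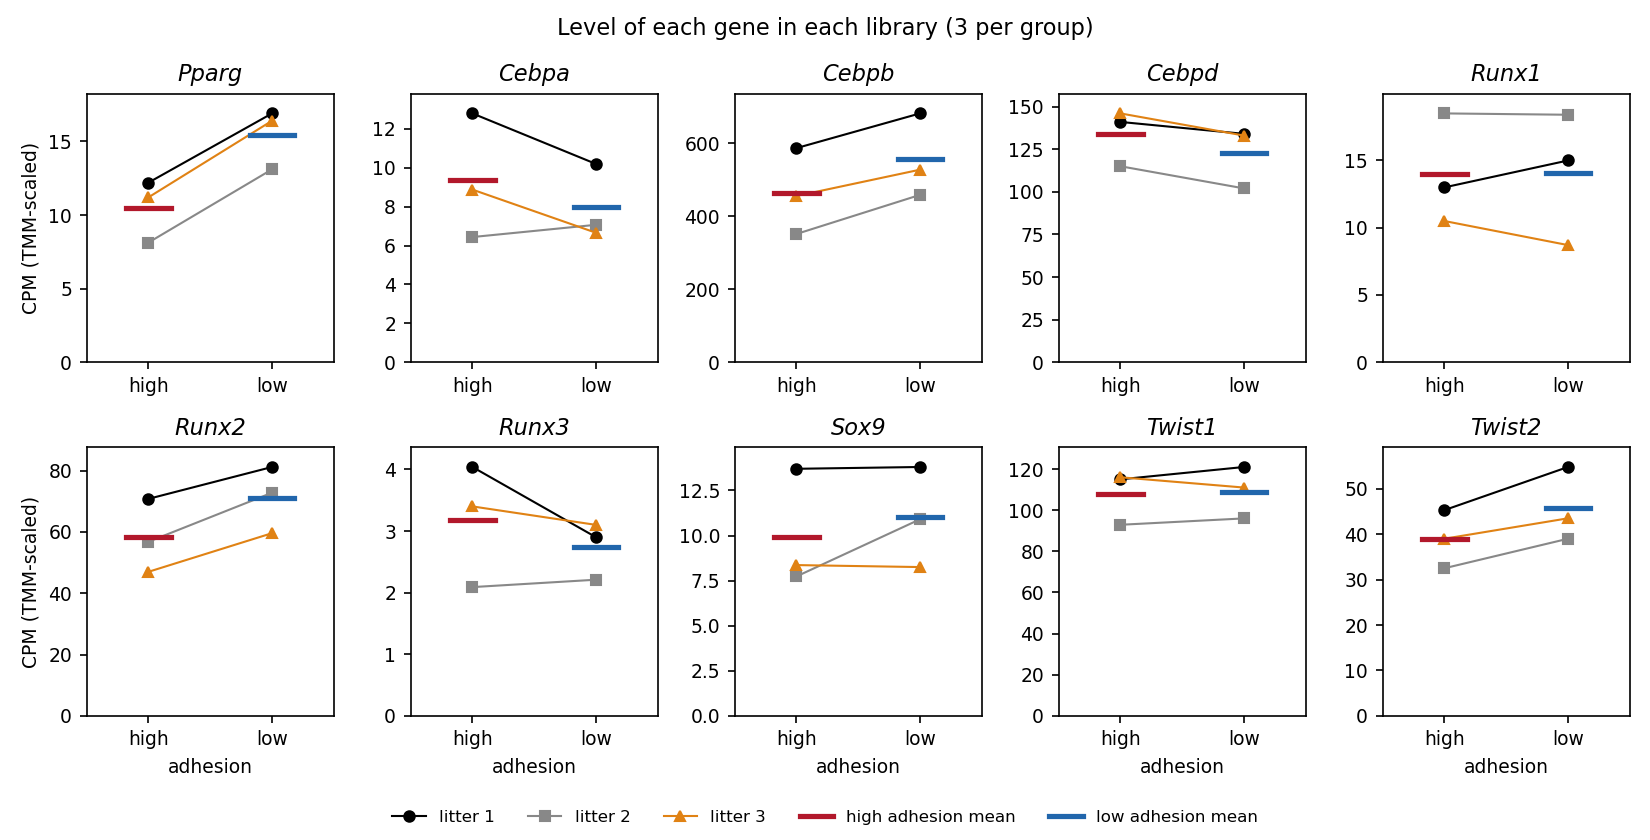
Level of each gene in each library in TMM-scaled CPM, high adhesion on the left and low adhesion on the right, with libraries of 1 litter joined by a line and the mean of 3 as a bar. Pparg, Cebpb, Runx2 and Twist2 slope upwards towards low adhesion in every litter, and Pparg is the gene whose groups do not overlap.

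Pparg (ENSMUSG00000000440) showed the largest difference of the 10. It stood at 12.2, 8.13 and 11.2 CPM in litters 1, 2 and 3 at high adhesion, against 16.9, 13.1 and 16.4 CPM at low adhesion. All high adhesion libraries were below all low adhesion libraries, which 15.6% of all tested genes showed in 1 direction or the other. The means were 10.5 ± 2.11 CPM at high and 15.4 ± 2.06 CPM at low adhesion (SD, n = 3 each). The fit put high adhesion at 0.68 times the low level, with a 95% interval of 0.593 to 0.778 and a log2 fold change of -0.56 ± 0.10 (standard error, edgeR adjusted p = 0.000209; adjusted p = 0.314 without the replicate block). Litter 2 was the lowest on both substrates and had the largest drop, with a log2 ratio of -0.69, against -0.47 in litter 1 and -0.55 in litter 3. The counts cover all Pparg isoforms together, so those of the upstream and downstream starts are not separated.

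Cebpb (ENSMUSG00000056501) was by far the most abundant member. Its values were 586, 351 and 455 CPM in litters 1, 2 and 3 at high adhesion and 681, 458 and 527 CPM at low adhesion. The groups overlapped because litter 1 was high on both substrates, yet within each litter the high adhesion library was the lower of the pair. The fit gave 0.83 times the low level (95% interval 0.782 to 0.88) and a log2 fold change of -0.27 ± 0.04 (standard error, edgeR adjusted p = 5.34e-05; adjusted p = 0.816 without the replicate block). Cebpb also differed between litters, with a litter F of 85.3 (edgeR adjusted p = 8.31e-10). Within-litter log2 ratios were -0.22, -0.38 and -0.21 for litters 1, 2 and 3, so litter 2 again had the largest drop.

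Cebpd (ENSMUSG00000071637), the other early C/EBP gene, leaned the opposite way. It was at 141, 115 and 146 CPM at high adhesion and at 134, 102 and 133 CPM at low adhesion. The high adhesion library was above its partner in 3 of 3 litters, by log2 ratios of 0.08 to 0.17, but the fitted log2 fold change of 0.13 ± 0.05 did not pass (edgeR adjusted p = 0.0877, unadjusted p = 0.0111, 95% interval of the ratio 1.02 to 1.16). It did not pass in any of the 11 alternative settings either, where its adjusted p ran from 0.066 to 0.851.

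Cebpa (ENSMUSG00000034957), which acts later in the cascade, was at 12.8, 6.44 and 8.88 CPM in the high adhesion libraries and at 10.2, 7.07 and 6.66 CPM in the low adhesion libraries. Litters 1 and 3 had more at high adhesion and litter 2 slightly less, and the groups overlapped. The ratio of 1.17 had a 95% interval of 0.988 to 1.39 (edgeR adjusted p = 0.273).

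Runx2 (ENSMUSG00000039153) was at 70.8, 56.8 and 47 CPM in litters 1, 2 and 3 at high adhesion and at 81.2, 72.8 and 59.6 CPM at low adhesion. Litter 1 was the highest and litter 3 the lowest on both substrates, and the groups overlapped across litters. Within litters high adhesion was the lower, with log2 ratios of -0.20, -0.36 and -0.34. The fit gave 0.815 times the low level (95% interval 0.752 to 0.883) and a log2 fold change of -0.30 ± 0.06 (standard error, edgeR adjusted p = 0.000785; adjusted p = 0.678 without the replicate block). Runx2 held fractional counts in 5 of 6 libraries, and how shared reads were divided is not stated by the labels, so its level is uncertain to that extent. With counts rounded down, which leaves the division of shared reads as it was, the log2 fold change was again -0.30.

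Runx1 (ENSMUSG00000022952) was at 13, 18.5 and 10.5 CPM at high adhesion and at 15, 18.4 and 8.71 CPM at low adhesion. Its litters went different ways, with log2 ratios of -0.21, 0.01 and 0.27, and the fitted ratio was 1.00 (95% interval 0.866 to 1.15, edgeR adjusted p = 1.00). Litter 2 had the most Runx1 on both substrates and litter 3 the least. Runx3 (ENSMUSG00000070691) had the fewest counts of the 10, with 52, 26 and 46 counts at high adhesion and 38, 29 and 41 counts at low adhesion. Its ratio of 1.16 had a 95% interval of 0.895 to 1.5 (edgeR adjusted p = 0.563).

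The 21 markers of myeloid cells and other leukocytes, set beside the Runt genes and Cebpa because blood cells make these factors, summed to 45.6 to 108 CPM at high and 54.6 to 104 CPM at low adhesion. Litter 1 had the largest sum on both substrates. Litters 2 and 3 had 45.6 and 53.8 CPM at high adhesion, and 54.6 and 56.3 CPM at low adhesion. Of the 15 tested, 1 was higher (Lyz2) and 0 lower by edgeR, with 3 lower at an unadjusted p under 0.05 and a median log2 fold change of -0.19, and none of the 21 was at 0 in all libraries. The part of such cells in the levels of Cebpa, Runx1 and Runx3 was not tested. Of the 9 mast cell and megakaryocyte markers only 2 were tested and 1 fell (Pf4). Their sums in litters 1, 2 and 3 were 6.06, 3.54 and 4.59 CPM at high and 9.17, 4.1 and 6.51 CPM at low adhesion. Endothelial markers, with 1 (Emcn) of 5 tested lower, summed in the same order to 37.8, 46.8 and 39.5 CPM at high and 46.8, 54.4 and 43.1 CPM at low. Of 11 markers of neurons and glia 3 were tested and 2 (Tubb3 and Elavl4) were higher. Their sums in litters 1, 2 and 3 were 30.8, 30.4 and 33.1 CPM at high and 21.1, 20.7 and 30.8 CPM at low adhesion.

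Sox9 (ENSMUSG00000000567) was at 13.7, 7.73 and 8.36 CPM in litters 1, 2 and 3 at high adhesion and at 13.8, 10.9 and 8.25 CPM at low adhesion. Litters 1 and 3 were nearly level, with log2 ratios of -0.02 and 0.02, and litter 2 had less at high adhesion, with -0.49. The fitted ratio of 0.903 had a 95% interval of 0.77 to 1.06 (edgeR adjusted p = 0.499), and without litter 2 the log2 fold change was 0.00 in place of -0.15. Epithelial cells, which also make SOX9, were measured with 19 markers. The sums in litters 1, 2 and 3 were 1010, 601 and 844 CPM at high and 719, 418 and 516 CPM at low adhesion. The 19 include the nephron progenitor genes Six2, which is also among the osteoblast factors below, and Cited1. Of the 16 tested, 6 rose, led by the keratin genes Krt19, Krt18 and Krt8 and by Cldn6, with Cited1 also among the 6. The 1 that fell was Gata3, which is also counted among the brakes on adipogenesis below. Wnt9b, a marker of the ureteric epithelium, was at 0 in all 6 libraries. The largest part of each sum was Krt18. It was at 729, 332 and 576 CPM in litters 1, 2 and 3 at high adhesion and 494, 200 and 310 CPM at low. The general epithelial genes Epcam, at a mean of 7.46 CPM at high and 5.93 CPM at low adhesion, and Cdh1, at 1.3 CPM at high and 1.01 CPM at low adhesion, did not pass (edgeR adjusted p = 0.1 and 0.556). The part of epithelial cells in the Sox9 level was not tested.

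Twist2 (ENSMUSG00000007805) was at 45.3, 32.5 and 39 CPM at high adhesion and at 54.8, 39 and 43.5 CPM at low adhesion. High adhesion was the lower in each litter, with log2 ratios of -0.27, -0.26 and -0.16, and the groups overlapped across litters. The fit gave 0.852 times the low level (95% interval 0.781 to 0.931) and a log2 fold change of -0.23 ± 0.06 (standard error, edgeR adjusted p = 0.0157; adjusted p = 0.724 without the replicate block). Twist2 missed the threshold with DESeq2, at an adjusted p of 0.334, and with litter 1 left out, at an edgeR adjusted p of 0.141. Twist1 (ENSMUSG00000035799), its close relative, was at 115, 92.9 and 116 CPM at high adhesion and at 121, 96 and 111 CPM at low adhesion. Its ratio of 0.988 had a 95% interval of 0.922 to 1.06 (edgeR adjusted p = 0.892), and the difference between the 2 genes was not tested. Neither gene held fractional counts in any library.

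**Figure D3:**
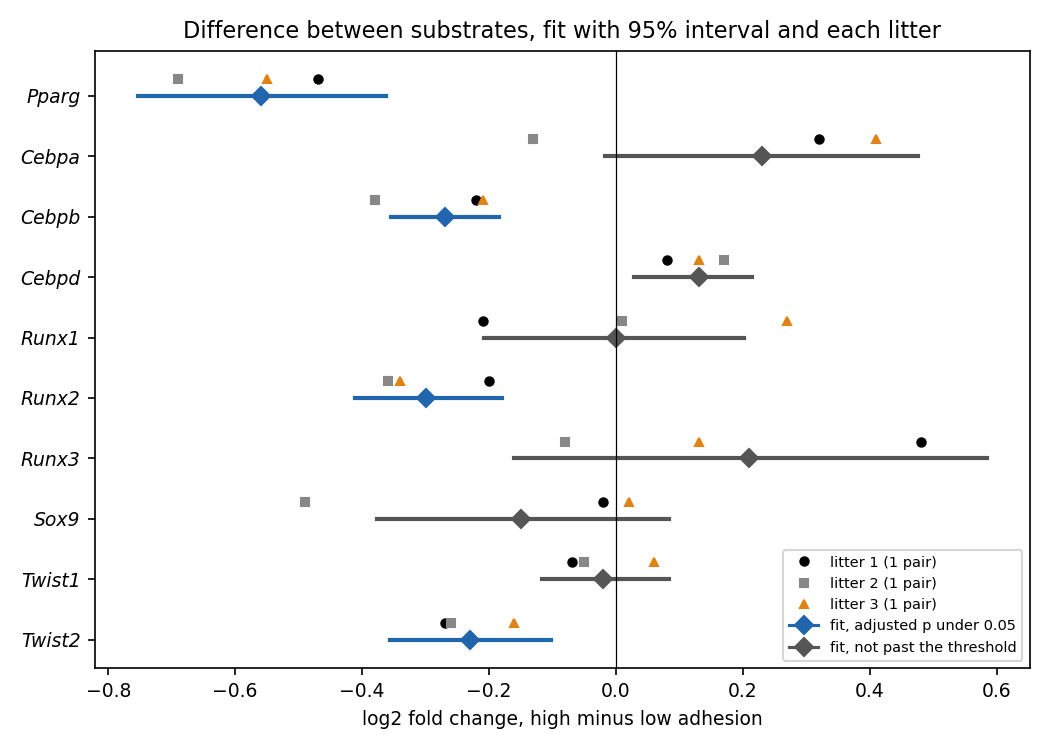
Log2 fold change of each gene (x axis, high minus low adhesion), as the edgeR estimate with its 95% interval (diamond and line) and as the ratio in each of 3 litters (small symbols). Pparg, Cebpb, Runx2 and Twist2 lie left of 0 in every litter, and Cebpd lies right of 0 in every litter without passing the adjusted threshold.

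Litter left a pattern of its own in these genes. Litter 1 was the highest of the 3 on both substrates for Pparg, Cebpa, Cebpb, Runx2, Sox9 and Twist2. Litter 2 was the lowest on both for Pparg, Cebpb, Cebpd, Runx3, Twist1 and Twist2. Runx1 ran differently, with litter 2 highest and litter 3 lowest on both. Each litter is 1 pool of kidneys, and what sets the litters apart was not tested.

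Levels can be compared between genes only per length, and for this the exon length of each gene in GENCODE M21 was used. Per kilobase of exon, Cebpb was at 309 CPM at high and 369 CPM at low adhesion, followed by Twist1 (66.3 and 67), Cebpd (35.8 and 32.8), Twist2 (12.3 and 14.4) and Runx2 (6.59 and 8.06 CPM per kilobase at high and low adhesion). Each of these 5 stood apart from its neighbours in the order, with library ranges that did not overlap on either substrate. At high adhesion the library ranges of Pparg (2.75 to 4.13 CPM per kilobase), Cebpa (2.44 to 4.86) and Sox9 (1.87 to 3.31) all overlapped. At low adhesion Pparg, at 4.44 to 5.72 CPM per kilobase, stood above Cebpa (2.53 to 3.87) and Sox9 (2 to 3.34), which overlapped each other. Runx1, at 1.16 and 1.17 CPM per kilobase at high and low adhesion, and Runx3, at 0.636 and 0.548, were the lowest. These values assume even coverage along the transcript, which the labels do not state.

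**Figure D4:**
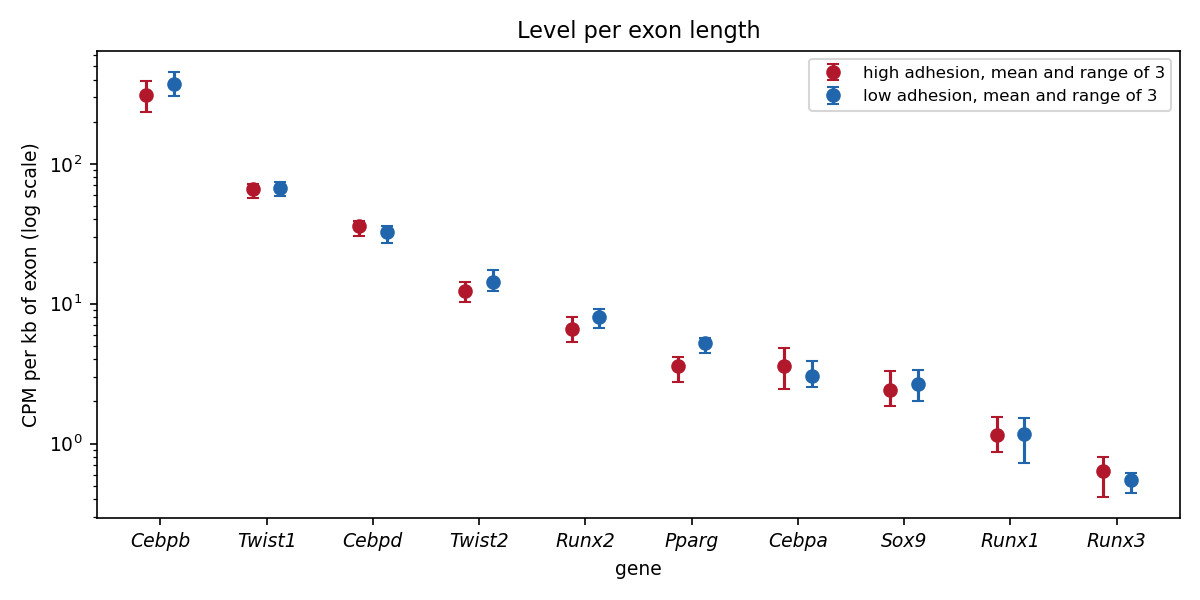
Level per kilobase of exon on a log scale for each gene, at high adhesion (red) and low adhesion (blue), as the mean and range of 3 libraries. Cebpb stands highest, and the ranges of Pparg, Cebpa and Sox9 overlap at high adhesion.

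Overlapping genes can add reads where counting ignores strand, and the strand setting is not given in the sources used here. By that annotation, an opposite-strand gene covered 46.5% of the exon length of Twist2 (Gm29100, 5 to 7 counts at high and 4 to 15 counts at low adhesion) and 5.87% of that of Runx2 (Runx2os1, 45 to 53 counts at high and 46.5 to 72.5 counts at low adhesion). Tmem189 covered 20.7% of Cebpb, with 524.33 to 557.67 counts at high and 470.92 to 524.42 counts at low adhesion. Spidr covered 15% of Cebpd, with 76 to 110 counts at high and 84 to 132 counts at low adhesion. Gm45091 covered 1.93% of Cebpa and Gm26626 0.881% of Runx1. Pparg, Runx3, Sox9 and Twist1 had no exonic overlap with another gene there.

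The partners and targets of these factors were followed in 13 lists, described here by counts and medians beside the 4.71% higher and 4.83% lower of all tested genes. In the list of PPAR and RXR partners, all nuclear receptor genes, 1 of 7 was lower by edgeR (Nr2f1, an orphan receptor, log2 fold change -0.20). The list median was -0.07. At an unadjusted p under 0.05, 2 were lower, and DESeq2 did not call Nr2f1 (DESeq2 adjusted p = 0.301). The number of higher genes was 0 by edgeR, also at an unadjusted p under 0.05, and 0 in DESeq2 and limma-voom. In the list of other C/EBP family genes and bZIP partners, which also holds Trib genes that are not bZIP genes, 2 of 7 rose and 1 fell (median 0.12). The stress-response factor gene Atf4 averaged 450 CPM at high and 393 CPM at low adhesion, and Trib3 7.32 CPM at high and 5.23 CPM at low adhesion. Trib2, whose product promotes the breakdown of C/EBPα, averaged 29.9 CPM at high and 35.7 CPM at low adhesion.

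Early activators of adipogenesis rose in 3 of 18 cases and fell in 1 (median 0.04). Klf5 stood at 251 ± 12.6 CPM at high and 218 ± 10.2 CPM at low adhesion (SD, n = 3 each, edgeR adjusted p = 0.00145), and Klf4 and Nfil3 also rose, with log2 fold changes of 0.21 and 0.19. The glucocorticoid receptor gene Nr3c1 fell by 0.14 on the log2 scale. Among brakes on adipogenesis 3 of 14 fell and 1 rose (median -0.11). Dlk1, which encodes the inhibitor of fat cell formation Pref-1, was at 249 ± 46.1 CPM at high and 402 ± 26.6 CPM at low adhesion (SD, n = 3 each, edgeR adjusted p = 0.000149). Gata3 and Wnt5a also fell, with log2 fold changes of -0.37 and -0.22, and Klf2, a repressor of Pparg, was at 190 ± 31.2 CPM at high and 148 ± 20.4 CPM at low adhesion (SD, n = 3 each, edgeR adjusted p = 3.45e-06).

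Of 21 tested adipocyte genes and targets of PPARG 3 rose, 1 fell and 17 did not pass, with a median log2 fold change of 0.06. The fatty acid binding protein gene Fabp5 was at 204 ± 18.5 CPM at high and 169 ± 13.4 CPM at low adhesion (SD, n = 3 each). The coactivator gene Ppargc1b was at 6.58 CPM at high and 3.45 CPM at low adhesion, and the lipase gene Pnpla2 had a log2 fold change of 0.28. Cd36, a fatty acid receptor gene, was the 1 that fell, at 2.72 CPM at high and 4.64 CPM at low adhesion. None of the 7 markers of mature fat cells passed the filter (Adipoq, Plin1, Cidec, Cfd, Lep, Retn and Ucp1), and their sum was 0.444 to 1.01 CPM at high and 0.378 to 0.764 CPM at low adhesion.

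Genes of bone matrix and targets of RUNX2 fell in 9 of 22 cases and rose in 0, that is 40.9% lower where 4.83% of all tested genes were, with a median log2 fold change of -0.19. The count of higher genes was also 0 at an unadjusted p under 0.05 and in DESeq2 and limma-voom. Ank, a pyrophosphate transporter gene, was at 27.8 ± 7.59 CPM at high and 42.3 ± 4.71 CPM at low adhesion (SD, n = 3 each, edgeR adjusted p = 6.79e-06). Spp1, which encodes osteopontin, was at 24.4 ± 3.34 CPM at high and 35.7 ± 7.43 CPM at low adhesion (SD, n = 3 each, edgeR adjusted p = 6.96e-06). Col1a1 averaged 1380 CPM at high and 1600 CPM at low adhesion, and the matricellular gene Postn 429 CPM at high and 494 CPM at low adhesion. The count was 5 in DESeq2, 7 to 8 with 1 litter left out and 0 without the replicate block. Several of these genes are ordinary products of fibroblasts, and Col1a1 is also in the stromal marker list. Of 8 tested osteoblast transcription factor genes 0 passed in edgeR, DESeq2 or limma-voom, 1 was higher at an unadjusted p under 0.05, and Foxc1 and Six2, the most abundant, had log2 fold changes of -0.01 and 0.09. Sp7, the osteoblast factor downstream of RUNX2, was below the filter. RUNX cofactors rose in 1 (Yap1, log2 fold change 0.14) and fell in 1 (Kat6b, -0.30) of 17 cases with a median of 0.00, and Cbfb, the partner subunit of all RUNX proteins, was at 117 ± 3.88 CPM at high and 108 ± 10.9 CPM at low adhesion (SD, n = 3 each, edgeR adjusted p = 0.211).

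Cartilage genes and targets of SOX9 fell in 4 of 15 cases and rose in 0 by edgeR (median -0.05). At an unadjusted p under 0.05, 1 was higher, and 0 were in DESeq2 and 1 in limma-voom. The proteoglycan gene Vcan was at 21.3 ± 0.931 CPM at high and 31.7 ± 7.44 CPM at low adhesion (SD, n = 3 each, edgeR adjusted p = 0.000431), and the cartilage collagen gene Col2a1 at 3.45 ± 0.227 CPM at high and 5.9 ± 0.89 CPM at low adhesion (SD, n = 3 each). Chst11 and the aggrecan gene Acan fell by 0.24 and by 0.19 on the log2 scale. Of these 4, DESeq2 did not call Col2a1, Chst11 or Acan (DESeq2 adjusted p = 0.158, 0.29 and 0.39). Without litter 1, Chst11 and Acan did not pass (edgeR adjusted p = 0.101 and 0.174). Of the 25 genes 10 were below the filter. Of the 12 markers of chondrocytes and bone cells 6 were tested and 2 fell (Col2a1 and Acan), with sums of 64 to 69.1 CPM at high and 73.3 to 81.8 CPM at low adhesion. SOX9 partners fell in 1 (Zbtb20, log2 fold change -0.32) and rose in 1 (Scx, 0.76) of 11 cases (median -0.03), and Sox5 and Sox6, the usual partners of SOX9 in cartilage, were below the filter.

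Among partners and antagonists of the TWIST proteins 2 of 13 fell and 2 rose (median -0.04). Tcf4, which encodes an E protein that pairs with TWIST, was at 155 ± 3.31 CPM at high and 207 ± 8.4 CPM at low adhesion (SD, n = 3 each, edgeR adjusted p = 2.67e-07), and Id2, an inhibitor of E proteins, at 287 ± 8.25 CPM at high and 349 ± 19.9 CPM at low adhesion (SD, n = 3 each, edgeR adjusted p = 5.06e-05). Scx and Tcf15 rose, with log2 fold changes of 0.76 and 0.40. Scx had few counts, 43, 22 and 32 in litters 1, 2 and 3 at high adhesion and 21, 20 and 17 at low. Of the other transcription factors of the mesenchymal state 3 of 10 fell and 1 rose (median -0.11). Snai1 was at 66.5 CPM at high and 84.4 CPM at low adhesion, Prrx1 at 7.33 CPM at high and 11.6 CPM at low adhesion, and Tbx18 had a log2 fold change of -0.58, while Snai2 was at 53.4 CPM at high and 45.3 CPM at low adhesion. Of tendon and skeletal muscle factors 1 of 5 tested rose (Scx, also in 2 lists above), and Myf5 and Pax7 were at 0 in all libraries.

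**Figure D5:**
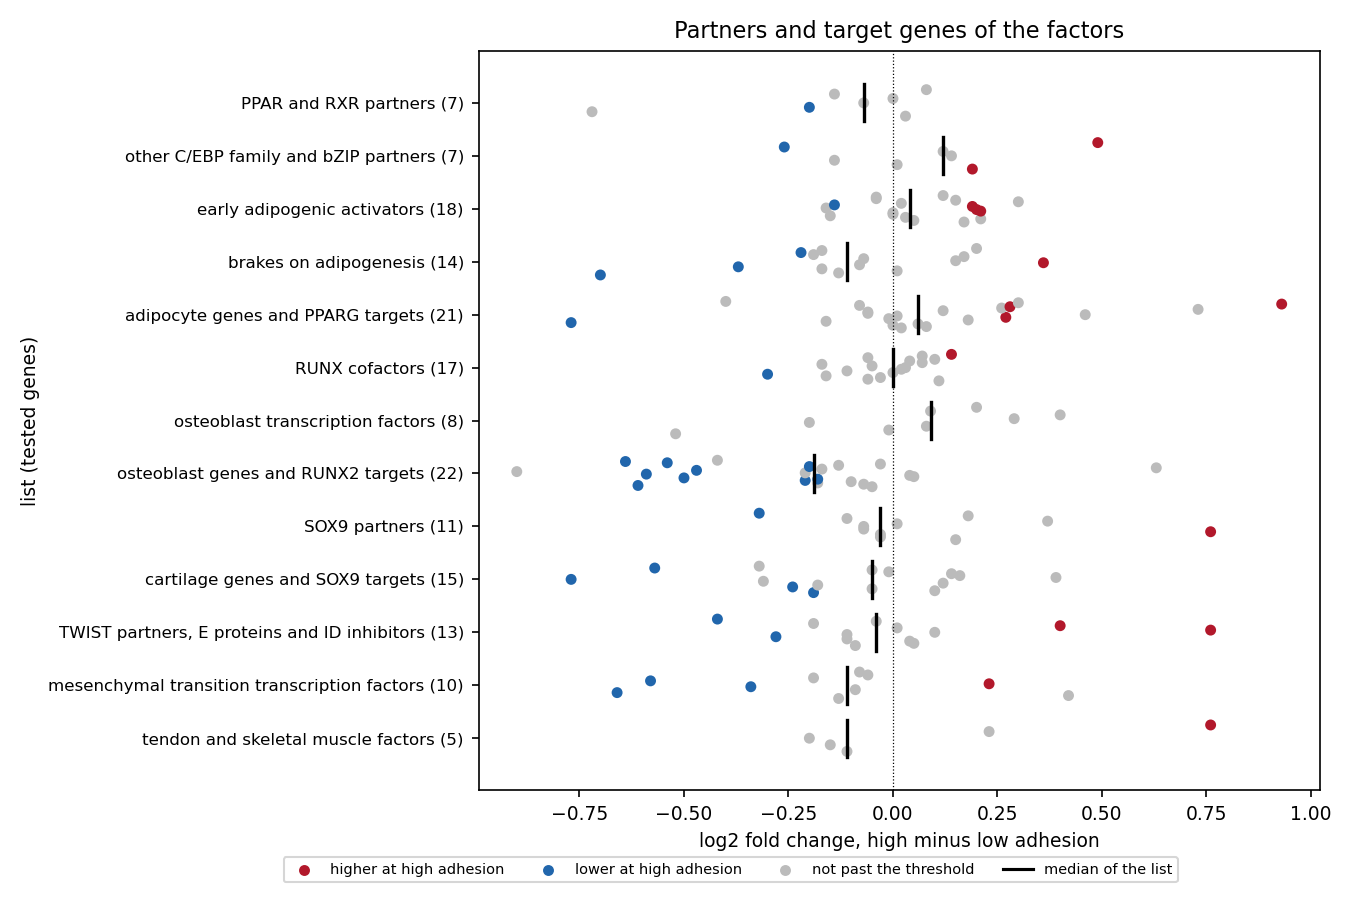
Log2 fold change (x axis, high minus low adhesion) of each tested gene in the 13 lists, red where higher, blue where lower and grey where the edgeR adjusted p did not pass, with the median of each list as a bar. The list of osteoblast genes and RUNX2 targets holds 9 genes that were lower and 0 that were higher.

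Of the 35 called genes named from these lists, 13 passed in every setting in which they were tested, other than the one without the replicate block: Ank, Col1a1, Dlk1, Fabp5, Gata3, Id2, Klf2, Klf5, Ppargc1b, Snai1, Spp1, Tcf4 and Vcan. Over genes of at least 5 CPM 31 of the 35 have a value, and Ppargc1b, Cd36, Col2a1 and Scx have none. DESeq2 gave 19 of the 35 an adjusted p above the threshold (from 0.0705 to 0.702), among them Cd36, Col2a1, Prrx1 and Tbx18. A gene without a DESeq2 adjusted p was not counted as a miss. The absence of Scx from the 19 therefore does not mean that DESeq2 called it. Without litter 1, 13 did not pass (edgeR adjusted p from 0.0573 to 0.379), namely Acan, Chst11, Kat6b, Nfil3, Nr2f1, Nr3c1, Pnpla2, Scx, Tcf15, Trib2, Wnt5a, Yap1 and Zbtb20. Without litter 2, Nfil3 and Yap1 did not (edgeR adjusted p = 0.117 and 0.0617). Without litter 3, 17 did not (edgeR adjusted p from 0.0525 to 0.413), which adds Atf4, Klf4, Postn, Snai2 and Trib3 to the names above, while Chst11 passed. With limma-voom, Scx, Tcf15 and Wnt5a did not pass (limma-voom adjusted p from 0.0511 to 0.0567). With no filter, Nfil3, Tcf15 and Yap1 did not (edgeR adjusted p from 0.0723 to 0.084). Without the replicate block Tcf4 alone of the 35 passed. Fabp5 and Klf4 held fractional counts in 6 of 6 libraries and Ank and Postn in 4 of 6, so their levels are uncertain.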

How the data were processed

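The submitters' processing notes name fastp 0.24.0, STAR 2.7.11, featureCounts, Subread 2.1.1 and build GRCm39, with no settings. The sources used here do not give annotation release, strand setting or treatment of shared reads. The deposited table holds the authors' estimated counts per gene, partly fractional, and CPM computed from them, which differ from CPM recomputed here by at most 5.1e-11. Between 7736 and 8256 genes per library had fractional counts, and these genes held 57.3 to 59.8% of all counts. Among the members these were Runx2 (5 libraries), Cebpa and Cebpb (2 libraries each) and Runx1 (1 library). Counts were rounded and tested with edgeR 4.0.16 in R 4.3.3: filterByExpr, TMM, and a robust quasi-likelihood fit with litter as a block, as the series' design text states litter-matched samples. Two-sided p-values had Benjamini-Hochberg adjustment across all 14834 tested genes, with a threshold of 0.05. Same-litter libraries deviated from their group means together (r = 0.60, 0.61 and 0.39 across genes). Replicates are litters. Standard errors are the log2 fold change divided by the root of F. Alternatives used DESeq2 1.42.0 and limma 3.58.1. The reference at hand is GRCm38, so it gave lengths, overlaps and promoter sequences only. Members and lists were chosen with earlier results of these data known. All 10 members are named, and from each list up to 4 called genes of lowest adjusted p, or the 2 most abundant where none was called; any further name was picked with its values in view. The fit was also run on counts simulated from its own fitted model, which cannot show how well that model holds for these libraries.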

Additional observations from a re-analysis of the deposited data

How the results depend on the processing

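The 4 lower calls, of Pparg, Cebpb, Runx2 and Twist2, were made again with RLE size factors, without scaling beyond library totals, without a filter, over genes of at least 5 CPM, with limma-voom, with counts rounded down, and without litter 2 or litter 3. Their number was 3 in DESeq2, 0 with no replicate block, and 3 to 4 with 1 litter left out; in each case with 3 the missing gene was Twist2. The number of higher members was 0 in all of these edgeR, DESeq2 and limma-voom settings. Over all genes 1416 were called, against 406 in DESeq2, 36 with no replicate block and 908 to 1553 with 1 litter left out (908 without litter 3). The number of members that differed between litters was 9, and 6 in DESeq2. Runx1 changed sign around 0, with log2 fold changes of 0.00 under RLE size factors, no scaling and rounding down, 0.01 in DESeq2 and -0.09 to 0.11 with 1 litter left out. Twist1 ran from -0.06 to 0.01 with 1 litter left out. None of these reversed values passed (adjusted p from 0.733 to 0.999). Runx3 has no value over genes of at least 5 CPM. Outside the setting with no replicate block, log2 fold changes of the 4 called genes ran between -0.61 and -0.21. The counts of Runx3 were the lowest of the 10, and its interval the widest.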
